A study of Rattus norvegicus with 14 samples.

Results

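Rasgrp3, Dennd2c, Rgs18, Src, Ubash3b, Cald1 and Tnik encode proteins that switch GTPases and kinases on or off or act on the actin cytoskeleton. The 7 genes, of 14217 that the array reads by a symbol of their own, were chosen by their log2 signal on these same arrays, as lower in untreated arthritis or higher after stimulation and as varying with platelet markers. Their values in the comparisons behind that choice, and their relation to platelet markers, are therefore given as a description without a test. A total of 17 probe sets, of 31042 on the array apart from controls, carry 1 of these symbols and no other. Of the 17, 13 passed the filter on low values, a signal above the median of the array on at least 2 of 14 arrays. The 4 that did not (2 of Src, 1 of Ubash3b and 1 of Cald1) had mean log2 signals of 3.28 to 6.02 and lay above the median on 0 arrays. For each gene the probe set with the highest mean leads, and all 7 leading probe sets passed the filter.

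RNA came from peripheral blood mononuclear cells of female Wistar rats, separated on a Ficoll gradient after blood was drawn under deep general anaesthesia, and all animals had been shaved at the stimulation points. NOCIA_B (NORA in the labels, 3 arrays) were healthy rats before therapy. CIA_B (RA, 2 arrays) were rats before therapy that had been immunised with bovine type II collagen in adjuvant and a booster, which gives collagen-induced arthritis, used to model rheumatoid arthritis. At 34 days, NOCIAMS_A (HAP, 3 arrays) were healthy rats given mechanical stimulation (MS), MS_A (AP, 3 arrays) were arthritic rats given the same, and MTXMS_A (MTXAP, 3 arrays) were arthritic rats given stimulation and methotrexate (MTX), a folate antagonist. In MS, named acupuncture in the labels, a thin needle was inserted and turned at points of the lower back and the leg. All 3 groups at day 34 had been stimulated, so time and therapy cannot be told apart in any comparison of a later with an earlier group. The ages of the rats are not given in the sources used here, and nothing ties an array to 1 animal, so errors and p-values measure the spread between arrays.

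Ras, Rap and Rab proteins are small GTPases, active when bound to GTP. Exchange factors load them, whereas RGS proteins speed up GTP hydrolysis by the alpha subunits of heterotrimeric G proteins and so end receptor signals. In platelets, fragments of megakaryocytes that remain in mononuclear cell preparations, Rap GTPases and Src kinases couple surface receptors to integrins, and actin and myosin drive the change of shape. Since RNA was taken from a mixture of cells, fewer cells of a type and less RNA per cell cannot be told apart in any value below.

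The promoters of 4 members are shown because their genes varied together, or in Tnik apart, across the arrays and because they hold letters of motifs read by factors of megakaryocytes. The windows are the 250 bases before the start of the gene in RefSeq (GRCr8), 5′ to 3′ on the strand of the gene. They lie at chr13:59066343-59066592 (minus strand) for Rgs18, chr2:193334980-193335229 (plus) for Dennd2c, chr6:25710592-25710841 (minus) for Rasgrp3 and chr2:113112687-113112936 (plus) for Tnik. Capitals mark matches on either strand to GATA letters (AGATAA, also with T as the first or G as the last letter), ETS letters (CCGGAAG, also with A as the second letter) and RUNX letters (TGTGGT, also with C as the third letter), which do not overlap in these windows.
Rgs18: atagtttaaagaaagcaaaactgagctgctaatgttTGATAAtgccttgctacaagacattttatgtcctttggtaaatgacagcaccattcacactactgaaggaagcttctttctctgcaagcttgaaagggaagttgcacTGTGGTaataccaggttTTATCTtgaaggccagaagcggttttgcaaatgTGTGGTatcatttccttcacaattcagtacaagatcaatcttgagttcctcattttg
Dennd2c: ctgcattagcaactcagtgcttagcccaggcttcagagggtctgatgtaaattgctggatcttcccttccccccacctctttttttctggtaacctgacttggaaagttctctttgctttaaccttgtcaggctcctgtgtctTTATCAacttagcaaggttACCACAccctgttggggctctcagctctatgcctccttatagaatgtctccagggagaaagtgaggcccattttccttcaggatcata
Rasgrp3: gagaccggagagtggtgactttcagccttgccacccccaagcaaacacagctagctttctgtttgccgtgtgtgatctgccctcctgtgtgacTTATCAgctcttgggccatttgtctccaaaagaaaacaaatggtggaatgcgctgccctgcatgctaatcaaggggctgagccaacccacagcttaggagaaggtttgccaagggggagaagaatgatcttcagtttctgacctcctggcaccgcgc
Tnik: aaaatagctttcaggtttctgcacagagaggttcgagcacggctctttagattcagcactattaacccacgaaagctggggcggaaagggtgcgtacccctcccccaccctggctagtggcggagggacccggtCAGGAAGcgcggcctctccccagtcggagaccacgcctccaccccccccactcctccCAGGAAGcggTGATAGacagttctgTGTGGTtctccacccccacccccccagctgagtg
All 7 genes matched the promoter table, Cald1 with 2 windows. GATA letters were found in 6 of the 8 windows and in 6 of the 7 genes, all but Ubash3b, against 27.02% of all 33469 windows of that length. ETS letters stood in 2 of 8 windows (Tnik and Ubash3b) against 16.7% of all, and RUNX letters in 3 of 8 (Tnik, Dennd2c and Rgs18) against 19.0%. Rgs18 held 4 matches, a GATA pair and a RUNX pair, and Dennd2c held a GATA and a RUNX match. A match describes the letters of the window and shows no binding.

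Median signals ran from 104 to 148.6 over the arrays, and the arrays correlated with the others by 0.855 to 0.934 on average. NOCIA_B replicate 3 (0.855) and MTXMS_A replicate 3 (0.882) stood apart. They also held the extremes of the erythroid marker score (1.99 and -3.77). A score averages the log2 signals of a list, each gene taken as its difference from its own average on the 14 arrays. Markers of the labelled cells were present, with 13 of 13 T cell, 5 of 5 B cell and 10 of 10 monocyte markers passing the filter, and so were 14 of 14 platelet markers.

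The 2 exchange factors varied most among the members. Rasgrp3 activates Ras and Rap upon binding diacylglycerol. Its log2 signal (1390159_at) was 10.79, 12.74 and 12.20 in NOCIA_B, 9.34 and 10.15 in CIA_B, 10.55, 10.13 and 10.21 in NOCIAMS_A, 10.88, 11.71 and 11.96 in MS_A, and 10.28, 10.78 and 10.16 in MTXMS_A. Both CIA_B arrays lay below the 3 of NOCIA_B, and every MS_A array lay above every array of NOCIAMS_A, MTXMS_A and CIA_B. Dennd2c belongs to the DENN domain proteins, exchange factors of Rab GTPases in membrane traffic. Its signal (1383556_at) was 9.88, 11.83 and 11.85 in NOCIA_B, 8.54 and 9.34 in CIA_B, 9.46, 9.24 and 9.97 in NOCIAMS_A, 10.85, 11.22 and 11.68 in MS_A, and 10.16, 10.22 and 8.58 in MTXMS_A. MS_A was again above all arrays of the 2 other later groups, while NOCIA_B overlapped it. Over the 14 arrays the range was 3.40 log2 units for Rasgrp3 and 3.31 for Dennd2c.

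Rgs18 is an RGS protein of megakaryocytes and platelets. Its signal (1379387_at) was 13.27, 14.66 and 15.21 in NOCIA_B, 12.54 and 12.84 in CIA_B, 13.12, 12.98 and 13.40 in NOCIAMS_A, 13.61, 14.09 and 14.17 in MS_A, and 13.86, 14.05 and 12.58 in MTXMS_A. Replicates 1 and 2 of MTXMS_A lay within the range of MS_A, whereas replicate 3 was as low as CIA_B.

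Src is the founding member of the Src family of tyrosine kinases. Its leading probe set (1389030_a_at) gave 8.67, 9.65 and 9.16 in NOCIA_B, 7.78 and 7.81 in CIA_B, 8.71, 8.35 and 8.49 in NOCIAMS_A, 8.73, 8.34 and 8.995 in MS_A, and 8.76, 8.53 and 8.39 in MTXMS_A. On this probe set only CIA_B stood apart from all other groups, and the 3 later groups overlapped. On the second (1373124_at) NOCIAMS_A (mean 7.35) overlapped CIA_B (7.04), and every MTXMS_A array (mean 8.01) lay above both. Ubash3b (TULA-2) is a tyrosine phosphatase that removes phosphate from Syk and thereby restrains signalling. Its leading probe set (1373298_at) gave 11.17, 12.61 and 12.85 in NOCIA_B, 10.68 and 10.82 in CIA_B, 10.70, 11.27 and 11.20 in NOCIAMS_A, 11.78, 11.88 and 12.30 in MS_A, and 11.61, 11.72 and 11.17 in MTXMS_A. On this probe set MS_A lay above the arrays of NOCIAMS_A and MTXMS_A, by a small margin over the latter. On the second (1379284_at) MS_A also lay above NOCIAMS_A but overlapped MTXMS_A.

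Cald1 encodes caldesmon, which binds actin and myosin and inhibits the ATPase of actomyosin. Its leading probe set (1371969_at) gave 9.59, 11.91 and 11.999 in NOCIA_B, 9.18 and 9.60 in CIA_B, 9.53, 9.36 and 10.25 in NOCIAMS_A, 10.80, 11.23 and 11.77 in MS_A, and 11.45, 11.28 and 10.66 in MTXMS_A. On this probe set both later arthritic groups lay above every CIA_B and every NOCIAMS_A array and overlapped each other. The second probe set (1368824_at) had means of 9.95 in MTXMS_A, 9.73 in MS_A, 9.43 in NOCIA_B, 8.84 in NOCIAMS_A and 8.43 in CIA_B. On both probe sets NOCIAMS_A and CIA_B had the lowest means, while the order of the other groups differed between them.

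**Figure D1:**
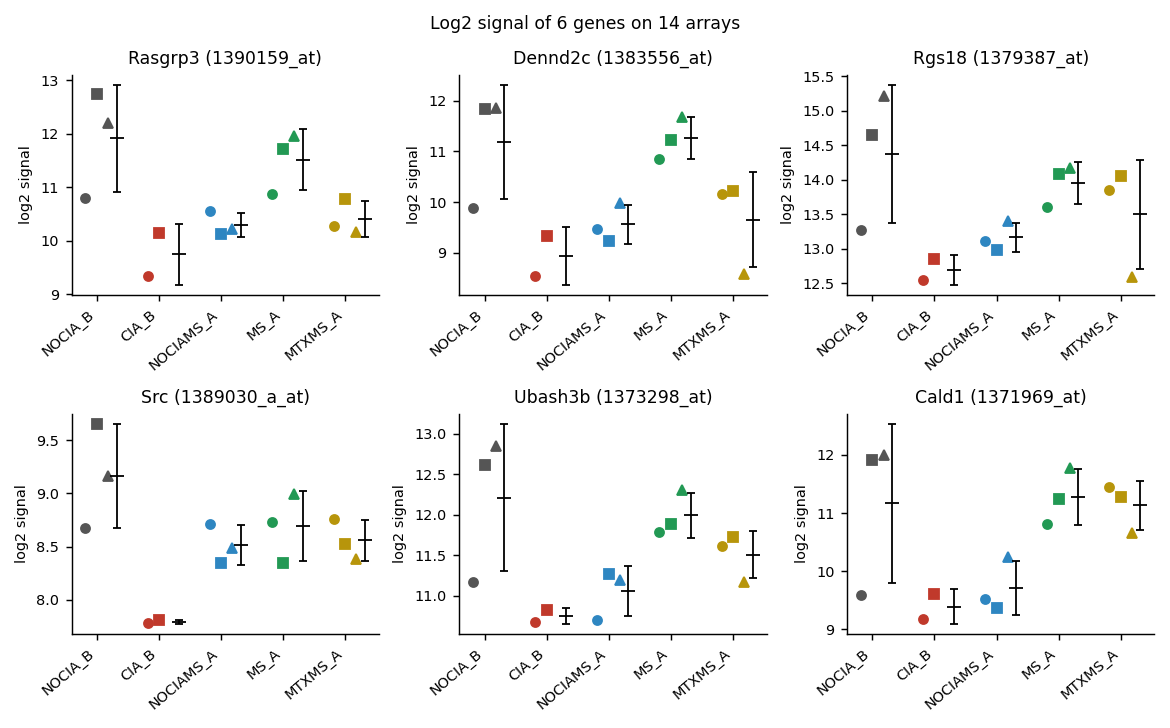
Log2 signal (vertical axis, a separate scale per gene) of the leading probe sets of 6 genes for each array, with groups along the horizontal axis. Symbols give the replicate number (circle 1, square 2, triangle 3), and each bar shows a group mean with its SD (3 arrays a group, 2 in CIA_B). CIA_B replicate 1 is the lowest array of each gene, NOCIA_B replicate 1 lies well below replicates 2 and 3, and Cald1 is high in both MS_A and MTXMS_A.

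Tnik, a kinase of the germinal centre group named for its binding to Traf2 and Nck, gave different patterns on its probe sets. Its leading probe set (1376562_at, mean 9.41) gave 10.06, 9.08 and 8.58 in NOCIA_B, 9.74 and 10.13 in CIA_B, 9.28, 9.50 and 9.28 in NOCIAMS_A, 9.33, 8.64 and 8.68 in MS_A, and 9.90, 9.84 and 9.75 in MTXMS_A. Here CIA_B and MTXMS_A were high and MS_A was low, and CIA_B and MS_A stood in the reverse order to the other genes. The second probe set (1383805_at) has nearly the same mean, 9.41, and gave 8.95, 11.09 and 10.23 in NOCIA_B, 8.86 and 8.998 in CIA_B, 9.44, 8.46 and 8.75 in NOCIAMS_A, 9.50, 9.32 and 10.01 in MS_A, and 9.07, 9.26 and 9.82 in MTXMS_A. Like the other members, it and the remaining pair, 1396144_at and 1380100_at, had lower means in CIA_B than in NOCIA_B and MS_A. The second probe set followed the members only in part. Its lowest mean was that of NOCIAMS_A (8.89), and MTXMS_A replicate 3 was the highest array of its group. CIA_B against NOCIA_B read 0.69 ± 0.37 (SE) on the leading probe set and -1.16 ± 0.52, -1.27 ± 0.30 and -1.49 ± 0.57 on the others. Which transcripts the 4 probe sets read was not analysed here, so no direction is given for Tnik.

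**Figure D2:**
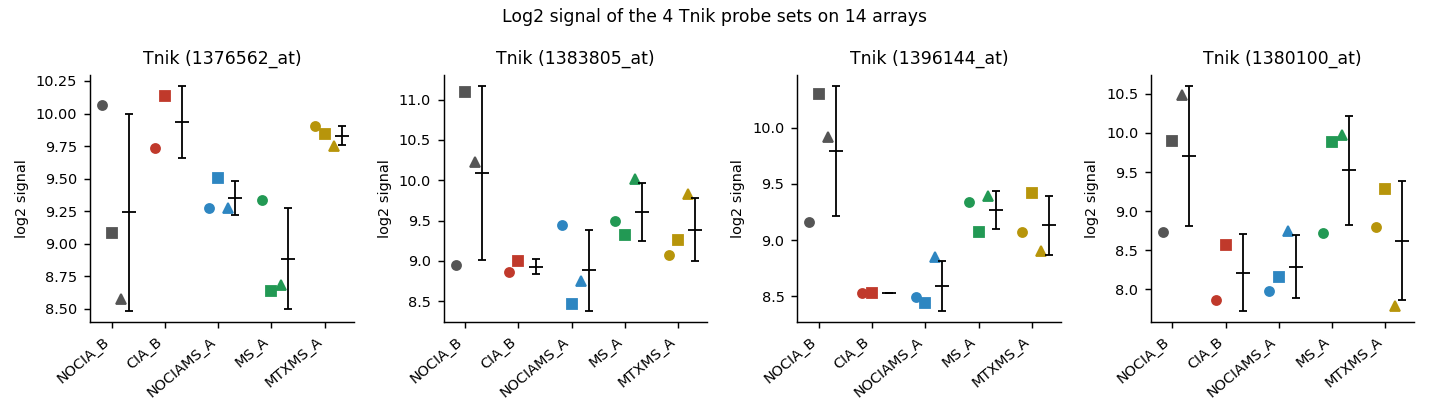
Log2 signal (vertical axis, a separate scale per panel) of the 4 Tnik probe sets for each array, with symbols for the replicate number (circle 1, square 2, triangle 3) and each bar a group mean with its SD (3 arrays a group, 2 in CIA_B). 1376562_at is highest in CIA_B (mean 9.93) and lowest in MS_A (8.88), while the other 3 are lower in CIA_B than in MS_A.

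The comparisons that the choice of members used, or could have used, are given without a test. Values are log2 fold changes of the first group over the second with the SE of the limma fit. In CIA_B against NOCIA_B, 5 of the 7 leading probe sets lay lower on every array, beside 9.33% of the 18515 probe sets that passed the filter, and their median was -1.69, from -2.25 ± 0.63 for Dennd2c to 0.69 for Tnik. Rasgrp3 read -2.17 ± 0.51, Rgs18 -1.69 ± 0.53, Src -1.37 ± 0.29, Ubash3b -1.46 ± 0.42 and Cald1 -1.78 ± 0.62. In MS_A against CIA_B, 6 of 7 lay higher on every array (16.2% of all) and Tnik lower (19.7% of all), with a median of 1.26 and 2.32 ± 0.63 for Dennd2c. In MTXMS_A against CIA_B, 4 of 7 lay higher (9.27% of all), with a median of 0.75 and 1.74 ± 0.62 for Cald1. In NOCIAMS_A against NOCIA_B, healthy rats on both sides, the median was -1.21, and 1 of 7, Rasgrp3, lay lower on every array (2.82% of all) and 0 higher (6.79% of all). Choosing genes that were lower in CIA_B than in NOCIA_B favours values below 0 there.
NOCIA_B replicate 1 lay below the other NOCIA_B arrays for the 6 genes other than Tnik, and its platelet score was -0.67 against 0.91 and 1.11 in replicates 2 and 3. The median in CIA_B against NOCIA_B was -2.24 without replicate 1 and -1.36 without replicate 3, the array that stood apart. In NOCIAMS_A against NOCIA_B it was -1.77 and -0.84.

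The 4 other comparisons were tested with limma over all 18515 probe sets. They share arrays with the comparisons above, so they are not independent of the choice of members. The shares of all probe sets given beside the members therefore measure no enrichment. In these comparisons 0 probe sets (0%) passed an adjusted p of 0.05. A fit without moderation of the variances called 5 in MTXMS_A against MS_A, 1 in MS_A against NOCIAMS_A, 2 in MTXMS_A against NOCIAMS_A and 0 in MS_A against NOCIA_B, and no member was among them.

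MS_A against NOCIAMS_A sets arthritic against healthy rats after the same stimulation. Choosing genes that were high in MS_A favours values above 0 here. The largest differences among the members were those of Dennd2c, 1.70 ± 0.56 (SE; fold 3.24), Cald1, 1.56 ± 0.56 (fold 2.94), and Rasgrp3, 1.22 ± 0.46 (fold 2.33), all higher in MS_A. Ubash3b read 0.93 ± 0.38, Rgs18 0.79 ± 0.47, Src 0.17 ± 0.26 and Tnik -0.47 ± 0.33. Of the 7 leading probe sets 6 were above 0 (44.6% of all probe sets), the median was 0.93 beside -0.05 over all probe sets, and 5 lay higher on every array (7.08% of all). None passed the test, the adjusted p being 0.810 or above by limma, while 4 of 7 had an unadjusted p under 0.05 beside 5.68% of all. The 95% interval of Dennd2c ran from 0.46 to 2.93 and that of Src from -0.39 to 0.74. Most platelet markers were higher beside them, 12 of 14 above 0 with a median of 0.73. Single markers ran from -1.04 to 1.23, and 5 of 14 lay higher on every array (7.08% of all). Their summed linear signal was 183981 to 223441 in MS_A and 159554 to 180329 in NOCIAMS_A. The platelet scores overlapped, at -0.07 to 0.67 in MS_A and -0.51 to -0.05 in NOCIAMS_A. Beside the platelet markers, NK cell markers had a median of 0.67 (7 of 8 above 0), stromal and vascular markers 0.50 (5 of 5) and erythroid markers 0.32 (10 of 12). The part of these other markers was not tested. The part of platelets was not tested.

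MTXMS_A against MS_A asks what methotrexate adds to stimulation in arthritic rats. Choosing genes that were high in MS_A favours values below 0 here. Of the 7 leading probe sets 1 was above 0 (49.4% of all), with a median of -0.46. Dennd2c read -1.60 ± 0.56 (SE; fold 0.330) and Rasgrp3 -1.11 ± 0.46 (fold 0.464), both lower in MTXMS_A on every array. So was the leading probe set of Ubash3b at -0.49 ± 0.38 (3 of 7 lower, 10.7% of all). The second Ubash3b probe set (1379284_at) read -0.09 ± 0.39, and its arrays overlapped. Tnik read 0.95 ± 0.33 on its leading probe set, higher on every array (1 of 7, 12.1% of all), and -0.90 ± 0.51, -0.22 ± 0.46 and -0.14 ± 0.27 on the others. Cald1 (-0.14 ± 0.56), Src (-0.13 ± 0.26) and Rgs18 (-0.46 ± 0.47) differed by less than 1 SE. The second Src probe set (1373124_at) had the opposite sign, 0.23 ± 0.39. None passed the test, with an adjusted p of 0.246 for Tnik, 0.248 for Dennd2c and 0.302 for Rasgrp3 by limma, although 3 of 7 had an unadjusted p under 0.05 beside 14.8% of all. The platelet markers had a median of -0.19 (3 of 14 above 0) and ranged from -1.61 to 1.46. Several other marker lists were lower as well, with medians of -0.87 for NK cells (0 of 8 above 0), -0.62 for B cells (1 of 5) and -0.61 for monocytes (2 of 10). Erythroid markers had -1.04 (2 of 12) and stromal and vascular markers -0.60 (1 of 5). T cell markers had only -0.14 (3 of 13) and neutrophil markers -0.01 (4 of 8). The part of these markers in the result was not tested. Without MTXMS_A replicate 3, which stood apart, the median of the leading probe sets was -0.05, with -1.06 for Dennd2c and -0.00 for Rgs18. Without that array the platelet markers had a median of 0.19 (12 of 14 above 0) and the erythroid markers 0.36 (9 of 12), so their direction rested on it, while NK cells had -0.91, B cells -1.16 and monocytes -1.001.

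MTXMS_A against NOCIAMS_A sets arthritic rats given both therapies against stimulated healthy rats. All 7 leading probe sets were above 0 (45.1% of all) with a median of 0.33. With the platelet score as covariate the median was -0.072, and Rasgrp3, Dennd2c, Rgs18 and Src were below 0. The values with the covariate test nothing, since the members were picked for following platelet markers. Only Cald1 exceeded 1 log2 unit, with 1.42 ± 0.56 (SE; fold 2.67) and 1.10 ± 0.44 on its second probe set, both higher on every array. The leading probe sets of Rasgrp3 (0.11 ± 0.46), Dennd2c (0.10 ± 0.56) and Src (0.04 ± 0.26) were near 0. The second Src probe set (1373124_at) read 0.66 ± 0.39 and lay higher on every array, so no single value is given for Src. Cald1 and Tnik made 2 of 7 that lay higher on every array (5.29% of all; 0 lower, 8.63%), and without the 2 arrays that stood apart the count was 5 of 7, beside 15.1% of all in the same setting. The adjusted p of Cald1 was 0.753 by limma, and 1 of 7 had an unadjusted p under 0.05 beside 6.37% of all. Platelet markers had a median of 0.38, 13 of 14 above 0.

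MS_A against NOCIA_B sets stimulated arthritic rats against healthy rats before therapy. Both groups are the high side of comparisons that chose the members, so the choice pulls both the same way. A small difference here therefore shows no return to healthy levels. Of the 7 leading probe sets 2 were above 0 (50.6% of all). Differences ran from -0.47 ± 0.26 (Src) to 0.10 ± 0.56 (Cald1), the arrays overlapped for all 7 (0 higher beside 4.77% and 0 lower beside 2.59% of all), and the adjusted p was 0.999 for each by limma. Here 0 of 7 had an unadjusted p under 0.05, beside 3.95% of all. The intervals remain wide, from -1.16 to 1.30 for Dennd2c and from -1.39 to 0.60 for Rasgrp3.

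**Figure D3:**
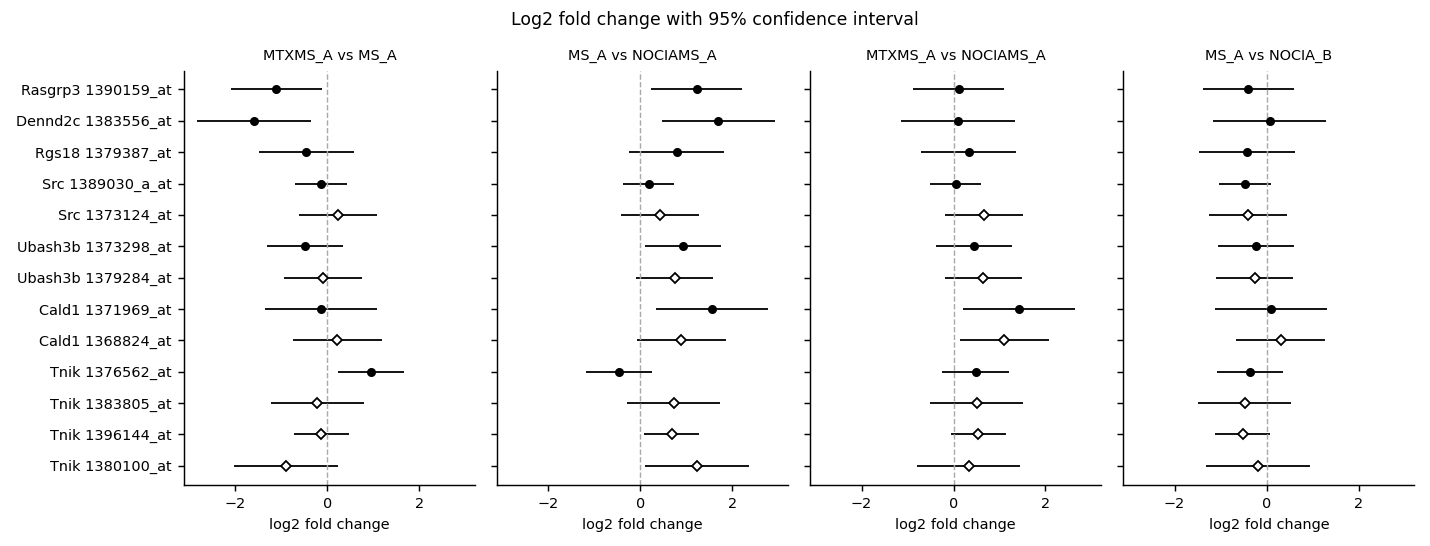
Log2 fold change (horizontal axis) of the 13 probe sets in the 4 tested comparisons, with 95% confidence intervals from limma; filled circles are leading probe sets and open diamonds the others. In MTXMS_A vs MS_A, Dennd2c (-1.60) and Rasgrp3 (-1.11) lie well left of 0 and Cald1 (-0.14) lies close to it, whereas in MS_A vs NOCIAMS_A the 3 genes lie between 1.22 and 1.70.

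Across the 14 arrays the members varied with platelet markers, the property for which they were picked. The score of the 7 genes and that of 14 platelet markers correlated by a Pearson r of 0.950 and a Spearman rho of 0.908, and by 0.913 without NOCIA_B replicates 2 and 3, the arrays farthest from the median platelet score. Over deviations from the group means r was 0.987. All points share the array and its scaling, and no p is given. The leading probe sets of the 6 genes other than Tnik each showed the relation. Their r was 0.955 for Rgs18, 0.931 for Cald1, 0.921 for Ubash3b, 0.890 for Dennd2c, 0.844 for Rasgrp3 and 0.803 for Src. The leading Tnik probe set, which enters the score of the 7 genes, had -0.660. The other Tnik probe sets had 0.712 to 0.881. Among themselves the 6 genes other than Tnik correlated by 0.720 (Src and Cald1) to 0.937 (Dennd2c and Rgs18), and Tnik with them by -0.739 to -0.524.
Of the other marker scores, that of stromal and vascular cells correlated with the members by 0.800. In this list Col1a2, Col3a1, Dcn and Lum lay above the median on 0 arrays, and the 5 markers that passed the filter were Acta2, Myh11, Des, Pecam1 and Kdr, of which Pecam1 is also a platelet protein. Erythroid cells had 0.519, NK cells 0.375 and T cells -0.447.
The summed platelet signal was 103585 to 145409 in CIA_B, 135796 to 248928 in MTXMS_A and 146035 to 429820 in NOCIA_B. With the platelet score as covariate, the median of the members was -0.49 in CIA_B against NOCIA_B and 0.50 in MS_A against CIA_B, against -1.69 and 1.26 without it. These values describe the fit and test nothing, since the members were picked for following those markers.

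**Figure D4:**
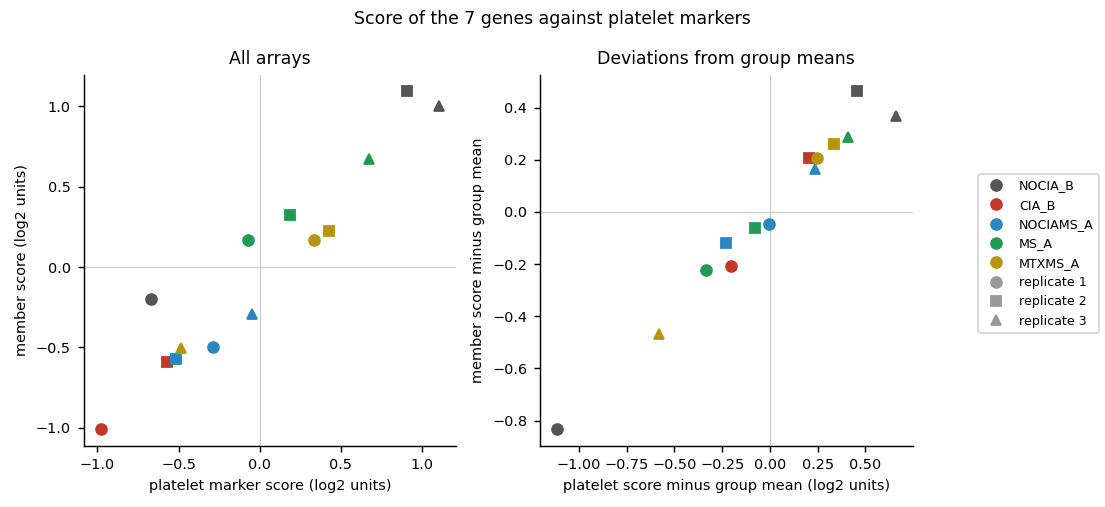
Score of the 7 members (vertical axis, mean centred log2 signal of the leading probe sets) against the score of 14 platelet markers (horizontal axis, log2 units) on 14 arrays, left as measured and right as deviations from the group means; colours are groups and symbols replicates. The points follow a line on both sides (r of 0.950 and 0.987), from CIA_B replicate 1 (-1.01) to NOCIA_B replicate 2 (1.09).

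**Figure D5:**
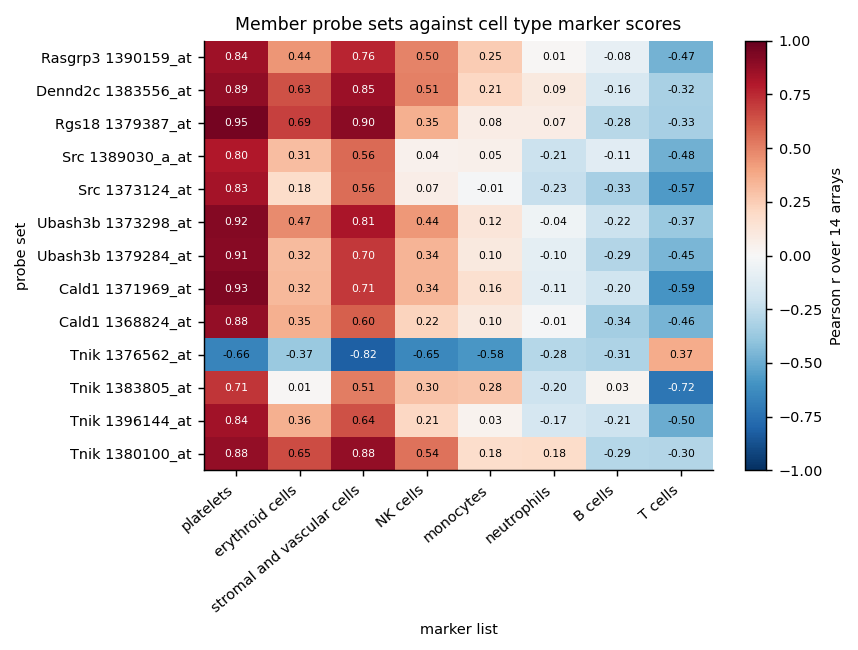
Pearson r over 14 arrays (colour and printed value) between the log2 signal of each of the 13 probe sets (rows) and the scores of 8 marker lists (columns). The platelet column runs from 0.71 to 0.95 for all probe sets but 1376562_at of Tnik (-0.66).

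Of 125 relatives and partners listed in 7 families, 111 had a probe set and 95 passed the filter, and 0 of the 95 passed the adjusted test in any of the 4 tested comparisons. In MTXMS_A against MS_A, 20 of the 95 had an unadjusted p under 0.05, beside 14.8% of all probe sets.
Among the families, actin and myosin regulators had the highest median in MS_A against NOCIAMS_A. Of them, 18 of 21 were above 0 with a median of 0.49 and 10 lay higher on every array (7.08% of all). Tpm2, a tropomyosin, read 2.00 ± 0.65 (SE), and Actn1, an actin crosslinker, 0.57 ± 0.32. The adjusted p was 0.810 for each by limma.
Regulators of Ras and Rap had medians of -0.05 in that comparison (8 of 17 above 0) and -0.22 in MTXMS_A against MS_A (6 of 17). Rasgrp2, the paralog of Rasgrp3 that activates Rap in platelets, read -0.05 ± 0.18 and -0.18 ± 0.18 in them. Rasgrp1, the T cell paralog, read 1.07 ± 0.49 and -0.36 ± 0.49. Its signal was low, above the median on 3 arrays, with means of 5.73 in NOCIAMS_A and 6.81 in MS_A. Rras, a small GTPase, had -1.38 ± 0.32 in MTXMS_A against MS_A, lower on every array, with an adjusted p of 0.184 by limma.
DENN domain proteins had 3 of 13 above 0 in MS_A against NOCIAMS_A, with a median of -0.21. Dennd2d, the paralog of Dennd2c, ran the other way, with -0.75 ± 0.34 against 1.70 for Dennd2c there and 1.03 ± 0.34 against -1.60 in MTXMS_A against MS_A. The difference between the paralogs was not tested. The paralogs Rasgrp4, Dennd2a and Yes1 did not pass the filter, and Ubash3a matched no probe set of a single symbol.
RGS proteins had 10 of 12 above 0 in MS_A against NOCIAMS_A, with a median of 0.20. Rgs10, which is also abundant in platelets, read 0.45 ± 0.42 and lay higher on every array. In MTXMS_A against MS_A the median was -0.25 (4 of 12 above 0), with -1.24 ± 0.32 for Rgs3.
The Src family and its regulators had 3 of 19 above 0 in MTXMS_A against MS_A, with a median of -0.48, 7 lower on every array (10.7% of all) and 9 with an unadjusted p under 0.05. Fgr, a Src kinase of myeloid cells, read -1.46 ± 0.48 there, and Lck and Fyn, Src kinases of T cells, -0.68 ± 0.23 and -0.54 ± 0.20. Ptpn6, the phosphatase SHP-1, read -1.52 ± 0.40 and Csk, the kinase that inhibits Src, -0.71 ± 0.24. The adjusted p was 0.188 or above by limma for these genes. Src itself read -0.13 on its leading probe set and 0.23 on its second.
Germinal centre kinases had medians of 0.07 in MS_A against NOCIAMS_A (9 of 13 above 0) and -0.26 in MTXMS_A against MS_A (6 of 13). Map4k4 and Mink1, the closest relatives of Tnik, read 0.32 ± 0.31 and -0.26 ± 0.24 in the latter.

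The probe sets whose log2 signal was most like that of each member over the 14 arrays were found among all that passed the filter and carry 1 symbol. For Rasgrp3 they were Arhgap28 (r of 0.946), Epor (0.945) and Morc4 (0.936), and for Dennd2c Asap1 (0.979), Epor (0.975) and Egln3 (0.970). Rgs18 was followed by Rnf11l2 (0.984), F11r (0.982) and Aig1 (0.980), and Src by C1galt1 (0.897), Slc1a3 (0.858) and Cdkn2aip (0.858). The nearest to Ubash3b were Daam1 (0.971), Clcn3 (0.962) and Znhit6 (0.959), and to Cald1 Gsta1 (0.981), Slc6a4 (0.966) and Prtfdc1 (0.963). The leading Tnik probe set was most like Igf1r (0.956), Anapc10 (0.952) and Strn3 (0.950), and the second one like Erbin (0.901), Azin1 (0.896) and Serinc3 (0.883). Nck2 (0.980), Sod2 (0.974), Evi2a (0.974), Tspan12 (0.972) and Daam1 (0.969) led the list for the score of all 7.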

How the data were processed

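Gene expression in rat peripheral blood mononuclear cells came from Affymetrix rat230 2.0 arrays, all hybridised in 1 of the 2 experiments of the study. The authors computed 1 linear intensity per probe set with mas5 of the affy package (version not given in the sources used here). In the deposited table every array has a mean of 500 once its highest and lowest 2% are set aside. Detection calls were not used, and the number of arrays limits the precision.

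Groups follow the labels and carry the codes of the study, a matching made here. Log2 intensities, without a pseudocount, were kept for the 18515 probe sets that exceeded the median of their array 2 or more times among the 14. The linear model of limma (version 3.58.1, under R 4.3.3) gave each group its own mean, with variances moderated by empirical Bayes. Tests are two-sided, with a Benjamini-Hochberg adjusted p of 0.05 over the 18515. The fit was tested on simulated data. Symbols came from the annotation table of the array, which gives 20826 probe sets a single symbol, 436 more than 1 and 9780 no symbol. Promoters came from RefSeq (GRCr8), and motifs were matched as exact letters on both strands.

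The members, families, markers and motifs were chosen with earlier results of these data known. Named genes were all probe sets of the 7 symbols, led by the one with the highest mean, the 3 most correlated probe sets of each leading probe set and of the second Tnik probe set (added after its values were seen), the 10 most correlated with the score of all 7 (5 are printed), and, from the family lists, close paralogs of a member and up to 2 genes per list with the lowest p in each tested comparison. Alternatives were quantile scaling, equal array medians, a pseudocount of 16, no filter, a filter on 7 arrays, array weights, no moderation, the thresholds of the study (fold of 2 and unadjusted p of 0.05), the replicate number as a block, each array left out, only the compared groups, and the platelet score as covariate.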

Additional observations from a re-analysis of the deposited data

Results flagged for a closer look

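For Rasgrp3 (1390159_at), stimulated against earlier groups went in opposite directions in arthritic and healthy rats. MS_A against CIA_B read 1.77, with every MS_A array above every CIA_B array, and NOCIAMS_A against NOCIA_B read -1.61, with every NOCIAMS_A array below every NOCIA_B array. The Tnik probe set 1396144_at showed the same, with 0.743 in arthritic and -1.20 in healthy rats. The leading probe sets of Dennd2c (2.32 and -1.63), Rgs18 (1.26 and -1.21), Src (0.90 and -0.65), Ubash3b (1.24 and -1.15) and Cald1 (1.88 and -1.45) also had opposite signs, but their arrays overlapped in the healthy rats. The choice of members used MS_A against CIA_B. Choosing genes low in CIA_B beside NOCIA_B favours values above 0 in MS_A against CIA_B and below 0 in NOCIAMS_A against NOCIA_B. The choice thus favours these opposite signs, and the difference between the 2 comparisons was not tested. The platelet marker medians were 1.23 in the former and -0.71 in the latter comparison. Their part in these differences was not tested.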

How the results depend on the processing

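None of the 13 probe sets was called in any alternative with an adjusted p. The lowest adjusted p over the alternatives was 0.0774, for Dennd2c in MTXMS_A against MS_A with the platelet score as covariate. Over all single values of the 13 probe sets in the tested comparisons, 1257 kept their direction and side of the threshold and 43 changed sign. Many alternatives cannot change a fold change, such as another filter or leaving out an array of a group not compared. They are counted among the 1257, which is therefore no measure of stability. The causes of the changes in sign were not tested.
Probe sets called in MTXMS_A against MS_A numbered 2 with array weights, 5 without moderation and 833 by the thresholds of the study. The counts were 1 without moderation and 347 by those thresholds in MS_A against NOCIAMS_A, 2 and 311 in MTXMS_A against NOCIAMS_A, and 221 by the thresholds in MS_A against NOCIA_B, which ask for no adjustment. Beside these thresholds the study removed probe sets by detection calls, which were not used here. The counts are therefore not those of its full procedure. Those thresholds passed Dennd2c and Rasgrp3 in MTXMS_A against MS_A, Dennd2c, Rasgrp3, Cald1 and Tnik 1380100_at in MS_A against NOCIAMS_A, and both Cald1 probe sets in MTXMS_A against NOCIAMS_A. With each array left out in turn, limma calls at the adjusted p of 0.05 ran from 0 to 1 in MTXMS_A against MS_A. These calls ran from 0 to 0 in MS_A against NOCIAMS_A, and from 0 to 2 in each of the other tested comparisons.
With the platelet score as covariate the median of the leading probe sets was 0.50 in MS_A against NOCIAMS_A, -0.49 in CIA_B against NOCIA_B, 0.50 in MS_A against CIA_B, 0.065 in MTXMS_A against CIA_B, -0.51 in NOCIAMS_A against NOCIA_B, -0.28 in MTXMS_A against MS_A and -0.22 in MS_A against NOCIA_B, and it changed sign, to -0.072, in MTXMS_A against NOCIAMS_A. With each array left out it ran from -2.24 to -1.36 in CIA_B against NOCIA_B and from -1.77 to -0.84 in NOCIAMS_A against NOCIA_B, the extremes being without NOCIA_B replicates 1 and 3. In MTXMS_A against MS_A it ran from -0.60 to -0.046, the latter without MTXMS_A replicate 3, in MTXMS_A against NOCIAMS_A from 0.059 to 0.61 (without MTXMS_A replicates 2 and 3) and in MS_A against NOCIA_B from -0.72 to -0.0064 (without NOCIA_B replicates 1 and 3).
After seeing the data, a fit without NOCIA_B replicate 3 and MTXMS_A replicate 3 and one led by the second Tnik probe set were added. Without the 2 arrays, 5 leading probe sets lay higher on every array in MTXMS_A against NOCIAMS_A, beside 15.1% of all probe sets.
In MTXMS_A against MS_A, signs turned with array weights for Src (0.017), Ubash3b 1379284_at (0.051) and Cald1 (0.0054), with the covariate for Ubash3b 1379284_at (0.036) and Cald1 (0.080), and without the 2 arrays for Ubash3b 1379284_at (0.039) and Cald1 (0.10). In MS_A against NOCIAMS_A the covariate turned Src (-0.031). In MTXMS_A against NOCIAMS_A it turned Rasgrp3 (-0.23), Dennd2c (-0.40), Rgs18 (-0.072), Src (-0.10) and Tnik 1380100_at (-0.082). In MS_A against NOCIA_B, array weights turned Dennd2c (-0.42), Cald1 (-0.46) and Cald1 1368824_at (-0.15), the covariate Tnik 1380100_at (0.019), and the fit without the 2 arrays Ubash3b (0.10) and Tnik 1380100_at (0.21).
With each array left out, signs turned in MTXMS_A against MS_A for Src (-0.31 to 0.020), Src 1373124_at (-0.025 to 0.62), Ubash3b 1379284_at (-0.26 to 0.17) and Cald1 (-0.37 to 0.11). They turned in MTXMS_A against NOCIAMS_A for Rasgrp3 (-0.077 to 0.24), Dennd2c (-0.18 to 0.63) and Src (-0.059 to 0.14). They turned in MS_A against NOCIA_B for Rasgrp3 (-0.95 to 0.021), Dennd2c (-0.58 to 0.40), Ubash3b (-0.74 to 0.10) and 1379284_at (-0.77 to 0.020), Cald1 (-0.69 to 0.52) and 1368824_at (-0.24 to 0.58), and Tnik (-0.69 to 0.056), 1383805_at (-1.05 to 0.021) and 1380100_at (-0.67 to 0.22).
Deviations of 26 same-numbered pairs of arrays had a median r of 0.055, and 10 were over 0.1. For 52 pairs with other numbers the median was -0.044, and 14 were over 0.1. Whether replicate numbers pair the arrays is not settled by these values. With the replicate number as a block, 0 probe sets were called in each tested comparison, and no call changed. The median of the members was -0.46 in MTXMS_A against MS_A and 0.93 in MS_A against NOCIAMS_A. The block cannot move these medians, because the compared groups hold the same replicate numbers. Setting array medians equal moved the median of all probe sets to 0.29 in CIA_B against NOCIA_B, -0.14 in MS_A against CIA_B and -0.16 in MTXMS_A against CIA_B, and values there are relative to that shift.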
